A study of Homo sapiens with 9 samples.

Results

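Cells of this MCF10A-derived mammary epithelial line without 4-thiouridine (4sU) give its baseline mRNA content in culture and the T>C signal found when no label is present. The set comprised 3 unlabelled libraries of 9 samples, and the genes with a mean of 5 CPM (reads per 1000000 reads of the library) or more in them. These were 8803 of 25695 genes, with 12918 of 33325 distinct 3′ intervals. Of these genes 8603 were protein-coding, 133 were long noncoding RNAs and 52 were transcribed pseudogenes. A second set held the intervals with a T>C conversion rate of 0.005 (0.5% of the sequenced T positions) or more in each of the 3 unlabelled libraries. It had 45 intervals in 35 genes, and 84 intervals in the whole table.

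All cells were MCF10A JUN KO cells, a non-transformed human mammary epithelial line with a JUN knockout, that had received a JUN-AID fusion (JUN fused to an auxin-inducible degron) and a TIR1 expression vector. They grew with horse serum, insulin, hydrocortisone, cholera toxin and EGF. The unlabelled group, no 4sU Ctrl, received no 4sU, and the labels do not name a solvent for it. The labelled groups received DMSO or 100 µM IAA, the auxin that triggers loss of the fusion protein, and then 100 µM 4sU for 1 h. RNA was alkylated with iodoacetamide, and libraries were made from mRNA 3′ ends. Totals were 18997637 to 22380508 reads without label. The IAA values of replicates 1, 2 and 3 did not differ in any row, so they are treated as a single library here. The study's text calls its SLAM-Seq replicates biological, while the labels give replicate numbers and name no separate cultures, and p-values measure the spread between these libraries.

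4sU is taken up and built into new RNA, and alkylated 4sU pairs with G, so that it is read as C in place of T. Any T>C in cells without 4sU is background. Mammary epithelium has a luminal layer, which can secrete milk, and a basal layer, which contacts the basement membrane through laminin-332 and hemidesmosomes. MCF10A cells grow attached, depend on EGF and are known for basal features.

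In these bulk libraries fewer cells with a transcript and less of it per cell cannot be told apart. JUN, the transcription factor whose gene was knocked out and replaced, was at 48.1, 57.6 and 45.0 CPM in unlabelled replicates 1, 2 and 3 (50.2 ± 6.60, SD, n = 3). The interval of 1287 bases on chromosome 1 lies at the mRNA 3′ end, and a degron acts on protein, so these reads check neither the knockout nor the depletion. Its T>C rate was 0.0368%, 0.0343% and 0.0529%, below the median gene of each library (0.0550%, 0.0548% and 0.0570%).

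Some genes had several intervals (30.9% of the 8803), and overlapping intervals count reads more than once. The sum over intervals decided which genes passed 5 CPM, and levels below are those of the interval with most reads. LDHA, for example, had 1766 CPM there. Levels in CPM compare libraries. Between genes, CPM per kb of interval is given as a second scale, although reads from 3′ ends do not grow with transcript length.

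Unlabelled replicate 1 stood apart from the other unlabelled libraries. The correlation of log2 CPM across 7586 genes, which are not independent replicates, was 0.931 and 0.927 with replicates 2 and 3, and 0.990 between those. Among 4528 genes at 20 CPM or more, 138 were at least 2-fold above and 125 at least 2-fold below the mean of the others in replicate 1. The same counts were 7 and 5 for replicate 2 and 11 and 10 for replicate 3. Values are therefore given for each replicate, in the order 1, 2, 3.

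The following sets of sequences are shown because results below turn on them. The first is the start of 9 genes with most reads per kb, from RefSeq (GRCh38.p14), as 30 bases of which the first 15 lie before the annotated start, on the strand of the gene. Capitals mark a C followed by at least 4 pyrimidines within 5 bases of the start, the pattern of a terminal oligopyrimidine (TOP) mRNA.
MT2A (chr16:56608569-56608598, plus strand): gccgcgctgcactccaccacgcctcctcca
RPS12 (chr6:132814554-132814583, plus strand): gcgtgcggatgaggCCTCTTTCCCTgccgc
RPLP1 (chr15:69452803-69452832, plus strand): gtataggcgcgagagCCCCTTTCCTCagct
S100A6 (chr1:153535977-153536006, minus strand): actgcgacacagcccatCCCCTCgaccgct
RPL26 (chr17:8383179-8383208, minus strand): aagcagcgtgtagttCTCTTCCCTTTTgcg
RPL34 (chr4:108620561-108620590, plus strand): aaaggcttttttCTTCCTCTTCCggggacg
RPS6 (chr9:19380222-19380251, minus strand): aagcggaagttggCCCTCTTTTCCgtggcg
RACK1 (chr5:181243892-181243921, minus strand): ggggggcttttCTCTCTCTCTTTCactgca
RPS29 (chr14:49598696-49598725, minus strand): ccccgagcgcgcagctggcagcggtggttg
MT2A and RPS29 lack the pattern in this window, and S100A6, which encodes no ribosomal protein, has it. The second is a stretch further upstream in the promoter of MT2A, a metallothionein that binds zinc and copper, 176 bases before its start. Capitals mark the cores of metal response elements, searched on both strands as TGCACNC and TGCGCNC.
MT2A (chr16:56608408-56608437, plus strand): cgcggcccGTGTGCAgagccgggTGCGCCC
The third, a mature miRNA and a pseudogene with its parent, is printed beside the rows it concerns.

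Basal markers had a higher summed level than luminal ones, although some luminal markers were also present. All 10 basal markers passed 5 CPM, with a summed level of 2903 to 4434 CPM. KRT5, a keratin of basal cells, was at 679, 632 and 519 CPM. TP63, the transcription factor of the basal lineage, was at 15.0, 17.2 and 16.2 CPM. These levels lay within a narrow range in all 3 libraries. LAMB3, the beta chain of laminin-332, was less even, with 2360.35 CPM in replicate 1 against 1021 and 850.3 CPM (CV 58.6%). KRT14, the usual partner of KRT5, was low, with 10.6, 3.84 and 3.63 CPM (CV 66.0%), and only replicate 1 was above 5 CPM.

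Of 12 luminal markers 6 passed 5 CPM and 5 were listed at 0 in every unlabelled library, and the summed level was 246 to 283 CPM. EPCAM, an epithelial adhesion molecule, was at 145, 112 and 130 CPM (129 ± 16.6, SD, n = 3). GATA3, a luminal transcription factor, was at 21.2, 29.4 and 24.5 CPM. The hormone receptor genes were at or near 0, with ESR1 at 0.395, 0.357 and 0.105 CPM and PGR listed at 0. KRT19, ELF5, KIT and SPDEF were also listed at 0. KRT19, KRT18 and KRT8 have 5, 68 and 51 named pseudogenes, and reads that fit several copies may be missing. Such loss was not tested.

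Markers of other cell types were few. Leukocyte, endothelial and adipocyte lists had 0 of 6, 0 of 5 and 0 of 4 genes at 5 CPM, and their summed levels reached at most 2.32, 0.840 and 0.247 CPM. PTPRC, VWF, CDH5 and ADIPOQ were listed at 0. In the fibroblast list 1 of 8 genes passed, DCN, a matrix proteoglycan, with 4.35, 6.43 and 5.37 CPM. COL1A2 was listed at 0 and the list summed to 9.15 to 11.9 CPM. Of the contractile genes of myoepithelium 2 of 6 passed, ACTA2 (18.8, 17.0 and 14.7 CPM) and TAGLN (15.4, 31.2 and 23.7 CPM), both actin filament proteins, while CNN1 was listed at 0. The plot of markers shows this order.

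A small number of genes held much of the reads. The median gene was at 20.8 CPM, 875 genes were at 100 CPM or more and 23 at 1000 CPM or more. The 10 genes with most reads made up 8.47% of the reads of all 8803 genes, and the first 1000 made up 57.3%. The median coefficient of variation (CV) over the 3 libraries was 16.3%.

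MALAT1, a nuclear long noncoding RNA, had most reads, with 12566, 11703 and 11067 CPM. MT2A followed with 8759, 9266.5 and 8876 CPM, a CV of 2.96%. Both were at like levels in the 3 libraries. S100A2, a calcium-binding protein of basal epithelium, had 4640.4 CPM in replicate 1 against 2260.45 and 2235 CPM. TPT1, a growth-related protein encoded by a TOP mRNA, was at 2548 ± 171 CPM (SD, n = 3). TGFBI, a secreted matrix protein, was at 2566, 2564 and 1735 CPM. Then came ACTG1 (gamma actin, 2186 CPM), PABPC1 (poly(A)-binding protein, 2002 CPM), IL1B (interleukin 1 beta, 1969.8 CPM), LDHA (lactate dehydrogenase, 1766 CPM) and HSP90AA1 (cytosolic chaperone, 1711 CPM).

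Per kb of interval the order changed. MT2A led with 61419 CPM per kb, from an interval of 146 bases. RPS12 (27794), RPLP1 (16919), S100A6 (16549), RPL26 (15944) and RPL34 (15238.5 CPM per kb) came next, and RPS6, RACK1 and RPS29 were also among the first 10. Apart from MT2A and S100A6, a calcium-binding protein, these encode ribosomal proteins or RACK1, a scaffold bound to the ribosome. Their intervals were short, 25 bases in RPS12 and 41 in RPLP1, so the order per kb rests on small denominators.

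**Figure D1:**
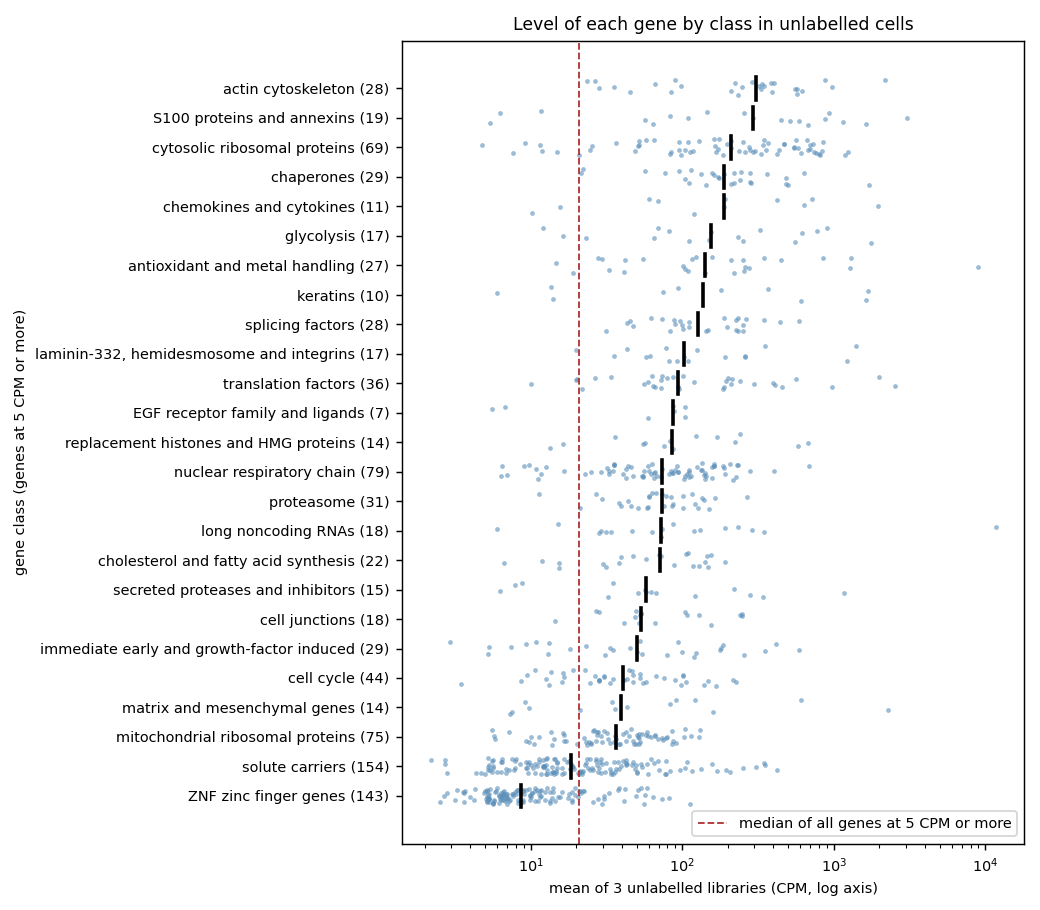
Mean level of each gene over the 3 unlabelled libraries (CPM, log axis) by gene class, with the number of genes at 5 CPM or more in brackets, 1 point per gene and a black bar at the class median. The dashed line is the median of all 8803 genes (20.8 CPM), and 23 of 25 class medians lie to its right.

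The lists of gene classes together held 951 of the 8803 genes (10.8%) and 34.4 ± 1.44% (SD, n = 3) of their reads. Counted over all reads of the library and with intervals summed, their share was 18.3 ± 1.27%. Class shares below are of all reads of a library, in the interval with most reads.

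Structural and adhesion genes came high. Of 18 keratins 10 passed, among them KRT81 (907, 2046 and 2131 CPM), a hair keratin, and KRT6A (1202, 1968 and 1750.4 CPM), a keratin of activated and stratified epithelium. Both were lowest in replicate 1. KRT7 (simple epithelium) was at 516, 289 and 298 CPM. KRT13, KRT4 and KRT20 were listed at 0.

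Laminin-332 anchors basal cells to the basement membrane. Its chain LAMB3 was at 1411 CPM on average and highest in replicate 1, whereas its chain LAMA3 was level (351, 347 and 357 CPM). ITGA6, its integrin receptor subunit, was at 259 ± 16.5 CPM (SD, n = 3). In this class 17 of 18 genes passed, and COL7A1, the anchoring fibril collagen, did not (1.88 CPM). The lowest that passed was ITGB1, an integrin beta chain, at 38.2, 11.6 and 10.4 CPM.

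Actin cytoskeleton genes had the highest class median in CPM, 305 CPM, but not per kb. On that scale their median of 264.4 CPM per kb was below that of several classes. Among these were cytosolic ribosomal proteins (1457), keratins (1175) and S100 proteins and annexins (815 CPM per kb). After ACTG1 came TMSB10 (973 CPM), which binds actin monomers, and CFL1 (879 CPM), which severs filaments, and MYL9 (4.31 CPM) was the 1 of 29 below 5 CPM. Cell junction genes were lower, with a median of 53.3 CPM, led by CDH3 (P-cadherin, 248 CPM), CTNNB1 (beta-catenin, 248 CPM) and CTNNA1 (alpha-catenin, 242 CPM), with PKP2, a desmosome protein, lowest at 14.4 CPM. In this class 18 of 21 genes passed. Of 7 tight junction genes 5 passed, with a median of 53.2 CPM, whereas CLDN4 and OCLN were at 0.129 and 0.356 CPM.

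Matrix and mesenchymal genes were mixed, and 14 of 17 passed. After TGFBI came VIM, the intermediate filament of mesenchymal cells (529, 608 and 695 CPM), and FN1, fibronectin. FN1 was at 48.5 CPM in replicate 1 against 246 and 182 CPM. TNC was lowest at 7.27 CPM. ZEB1 (4.44 CPM), ZEB2 (0.264 CPM) and SNAI1 (4.27 CPM), repressors of epithelial genes, were below 5 CPM. SNAI2, a repressor of this kind in the same list, passed, with 48.2, 97.1 and 126 CPM summed over distinct intervals.

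Among secreted proteases and their inhibitors 15 of 23 genes passed. SERPINB5 (maspin) was at 339.5 ± 50.0 and TIMP1 at 281 ± 20.5 CPM (SD, n = 3). MMP1, MMP2, MMP3, MMP10 and MMP13, matrix metalloproteinases, lay between 0.120 and 0.182 CPM, and MMP14 was the lowest that passed (6.27 CPM).

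Receptors and growth-factor signalling were present at moderate levels. EGFR, the receptor for the EGF in the medium, was at 125, 94.99 and 93.7 CPM. Its ligands TGFA (105 ± 11.7 CPM) and HBEGF (88.7 ± 19.7 CPM, SD, n = 3) were of the same order, whereas AREG was low (5.59 CPM). ERBB3 (4.23 CPM) and ERBB4 (0.0298 CPM), other receptors of the family, and EGF itself (0.183 CPM) did not pass.

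Immediate early and growth-factor induced genes, which respond to stimuli without new protein synthesis or within short times, passed in 29 of 31 cases, with a median of 50.2 CPM. IER3, which protects from cell death, was at 514, 750.3 and 499.5 CPM. ZFP36L1, an mRNA decay factor, was at 417 ± 24.1 CPM (SD, n = 3). CCN1, a matricellular YAP/TAZ target, was at 233, 435 and 389 CPM, lowest in replicate 1. ATF3 was lowest of those that passed (2.95 CPM in its best interval), and ANKRD1, another YAP/TAZ target, was below the limit at 0.110 CPM.

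Cytokines were few but abundant. Of 21 chemokines and cytokines 11 passed. IL1B was at 1992, 2103 and 1815 CPM and CXCL1, which draws neutrophils, at 656, 799 and 703 CPM. CCL20, which attracts CCR6-bearing leukocytes, was lower in replicate 1 (319.7 CPM) than in the others (844 and 752 CPM). IL6 was the lowest (10.2 CPM), and TNF (0.822 CPM), CXCL10 (0.309 CPM) and CCL2 (listed at 0) were not among those that passed.

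S100 proteins and annexins, calcium-binding proteins of which many act at membranes, passed in 19 of 22 cases, with a median of 295 CPM. After S100A2 and S100A6 came ANXA2 (1346, 1139 and 972 CPM). S100A7 was lowest (5.398 CPM). The metal and antioxidant class owed its share of 1.58 ± 0.0564% (SD, n = 3) mostly to MT2A, with FTH1 (iron storage, 1305 CPM) and MT1E (metallothionein, 1285 CPM) next. PRDX4, an endoplasmic reticulum peroxiredoxin, was lowest at 14.7 CPM, and HMOX1, which degrades heme, was below the limit at 3.62 CPM. In the 250 bases before the annotated start MT2A had 7 metal response element cores, and 1.57% of 27195 promoters had 3 or more. The match describes the letters only.

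Among the gene classes, cytosolic ribosomal proteins had the largest share of reads. Of 79 cytosolic ribosomal protein genes 69 passed, with 2.22 ± 0.523% of reads (SD, n = 3), a median of 211 CPM and a median interval of 69 bases. RPS29 (1248 CPM) and RPS24 (1195 CPM) had most reads and RPS25 least (4.80 CPM). The TOP pattern printed above was found in 46 of 56 of them with a promoter in the RefSeq table (82.1%), and in 21.1% of all 27195 promoters and 23.1% of those of the genes at 5 CPM or more. Translation factors, many of which are also known TOP mRNAs, had it in 15 of 28 (53.6%). Mitochondrial ribosomal protein genes had it in 22.1%.

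All 10 ribosomal protein genes below 5 CPM have named pseudogenes, with a median of 22.5 copies, but so do all 79, with a median of 13. RPL21, with 133 named copies, was at 2.76 CPM. EEF1A1, the elongation factor that brings tRNA to the ribosome, with 49 copies, was at 31.9, 15.5 and 17.9 CPM. Levels of such genes are uncertain, because reads may be shared with a near-identical copy or lost. How far this lowered them was not tested.

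Replicate 1 had more ribosomal protein reads than the others, with shares of 2.81%, 2.03% and 1.82%. It was the highest of the 3 libraries in 58 of the 69 genes, and the median log2 difference from the mean of replicates 2 and 3 was 0.74, against 0.09 for all 8803 genes. RPS6 was at 1080.1 CPM against 307 and 312 CPM, RPL37 at 352 against 71.1 and 78.4 CPM, and RPL12 at 114 against 24.1 and 18.6 CPM. RPS29 went the other way, with 935 against 1557 and 1252 CPM.

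Interval length moved with this difference. The median log2 difference of replicate 1 was 0.52 for 212 genes with intervals under 100 bases and fell over the longer classes to -0.04 for 1621 genes at 3000 bases or more. Without ribosomal proteins it was 0.49 and -0.04. Of the 69 ribosomal protein genes 44 had intervals under 100 bases. The part of length in the ribosomal difference was not tested.

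**Figure D2:**
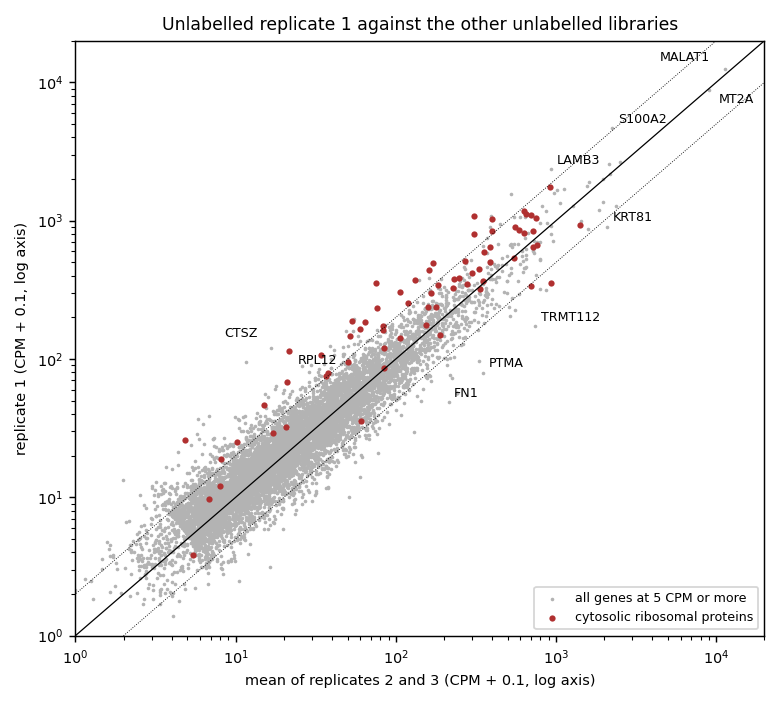
Level of each of the 8803 genes in unlabelled replicate 1 against the mean of unlabelled replicates 2 and 3 (CPM plus 0.1, log axes), with 1 point per gene and cytosolic ribosomal proteins in red. The solid line marks equal levels and the dotted lines 2-fold differences, and 58 of 69 ribosomal protein genes are highest in replicate 1.

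Genes of other functions were far from equal as well. PTMA (prothymosin alpha, a histone-binding acidic protein) was at 79.2 CPM against 328 and 374 CPM. CTSZ, a lysosomal protease, was at 119 CPM against 17.2 and 16.1 CPM and had the largest CV (117%) among genes at 50 CPM or more. LGALS1 (galectin, CV 80.1%) and RPL36 (CV 79.1%) were also highest in replicate 1. At the other end, PTPRF, a receptor tyrosine phosphatase, was at 201, 201 and 200.1 CPM (CV 0.154%), and SRP72, CSNK1A1, RAB11A and PSMD12 had CVs of 0.244% to 0.664%. These 10 genes are the ends of an ordered list and are given as a description.

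Metabolic and housekeeping classes were nearly complete. Glycolysis passed in 17 of 20 genes, with LDHA, ENO1 (enolase, 907.5 CPM) and GAPDH (1056, 618 and 668 CPM) highest and PFKL (12.1 CPM) lowest. The nuclear respiratory chain passed in 79 of 86 genes, led by ATP5MG (314, 1023 and 715 CPM) and ATP5MC3 (405 CPM) of ATP synthase and COX6C (278 CPM) of complex IV, with NDUFA3 of complex I lowest (6.36 CPM). Its members known from other tissues, COX4I2, COX6A2, COX7A1 and COX7B2, were listed at 0. Mitochondrial ribosomal proteins passed in 75 of 76 genes, with a median of 36.8 CPM, from MRPL3 (132 CPM), MRPS24 (169, 115 and 106 CPM) and MRPL13 (114 CPM) to MRPS31 (5.61 CPM). Proteasome subunits passed in 31 of 32 genes, from PSMA1 (266 ± 5.22 CPM, SD, n = 3), PSMB5 (166 CPM) and PSMA7 (151 CPM) to PSMB3 (11.3 CPM). Cholesterol and fatty acid synthesis passed in 22 of 23 genes, from SCD (a desaturase, 191 CPM) and MSMO1 (a sterol oxidase, 148 CPM) to FADS2 (6.63 CPM).

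All 29 chaperones and all 28 splicing factors passed. HSPA5 (641 ± 20.9 CPM, SD, n = 3) and CANX (501.5 CPM), chaperones of the endoplasmic reticulum, followed HSP90AA1, and PDIA3 was lowest (21.6 CPM). HNRNPA2B1 (462, 690.5 and 607 CPM), HNRNPK (225, 578 and 533 CPM) and HNRNPU (345 CPM) led the splicing factors, each lowest in replicate 1, and HNRNPH2 was last (31.4 CPM). Translation factors passed in 36 of 37 genes, with EEF2, the translocase, at 967 CPM after TPT1 and PABPC1, and EIF3F at 10.1 CPM.

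Cell cycle genes passed in 44 of 46 cases. CDK6, the G1 kinase, was at 143, 247 and 291 CPM, CDKN1A, the inhibitor p21, at 317, 165 and 164 CPM, and RRM1, which makes deoxynucleotides, at 90.1, 214 and 201 CPM. CDK6 and RRM1 were lowest and CDKN1A highest in replicate 1. CDKN2C, the inhibitor p18, was the lowest that passed (3.48 CPM in its best interval). The genes that did not pass, CDKN2A and CDKN2B, inhibitors of CDK4 and CDK6 whose locus is known to be deleted in MCF10A, were listed at 0 in all libraries. Replacement histones, which are polyadenylated, were led by H3-3B (679 CPM) and H2AZ1 (578 CPM), with the chromatin protein HMGB1 at 242.5 CPM and H1-10 lowest at 13.5 CPM.

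Large families had medians below that of all genes (20.8 CPM), clearly so for ZNF genes and by little for solute carriers. Of 515 ZNF zinc finger genes, mostly transcriptional regulators, 143 passed (27.8%), with a median of 8.67 CPM (5.38 CPM per kb). ZNF281 was highest (112 ± 12.95 CPM, SD, n = 3), followed by ZNF207 (81.3 CPM) and ZNF770 (74.1 CPM), and ZNF747 was lowest (2.51 CPM in its best interval). Of 378 solute carriers, the membrane transporters, 154 passed, with a median of 18.6 CPM. SLC25A3 (mitochondrial phosphate, 422 CPM), SLC38A1 (glutamine, 352 CPM) and SLC20A1 (phosphate, 347 CPM) were highest and SLC25A27 lowest (2.19 CPM).

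Long noncoding RNAs were led by MALAT1, which alone gave most of the class share of 1.36 ± 0.0770% (SD, n = 3). SNHG29, a snoRNA host, was at 293, 378 and 375 CPM, and NEAT1, the paraspeckle RNA, at 260.3, 316 and 285 CPM. SNHG15 was lowest (5.97 CPM).

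Of the 8803 genes 11 carried miRNA names, although 3′ end libraries of polyadenylated RNA do not capture mature miRNAs. The 4 copies of MIR1244 had identical reads, 56.8, 233 and 249 CPM. Their hairpins of 85 bases matched a transcript of PTMA in 85 of 85 bases, and MIR1244-1 lies within the PTMA gene. The row has the same order of libraries as PTMA, with replicate 1 lowest. The mature sequence, with the seed (bases 2 to 8) in capitals, is found in PTMA transcripts in the T form.
hsa-miR-1244: aAGUAGUUgguuuguaugagaugguu
MIR6797 (70.0, 127 and 83.0 CPM) lies within RPS19, MIR6805 within RPL28, MIR1248 within EIF4A2, MIR4647 within SLC35B2 and MIR4709 within NPC2. These values are reads of intervals that bear miRNA names and are not miRNA levels.

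The T>C background was low and alike in the 3 libraries. The median rate over the 8803 genes was 0.0550%, 0.0548% and 0.0570% (0.0556 ± 0.00122%, SD, n = 3). With DMSO and 4sU it was 0.253%, 0.188% and 0.190%, a ratio of means of 3.79, and with IAA and 4sU 0.234%. The unlabelled libraries lay below all labelled ones. In 8.87% to 10.8% of genes the unlabelled rate was 0.

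Gene classes had nearly the same background. Class medians lay between 0.0433% (EGF receptor family and ligands) and 0.0710% (keratins), a ratio of 1.64. With DMSO and 4sU they ranged from 0.128% (nuclear respiratory chain) to 2.69% (immediate early genes), a ratio of 20.9. In each of the 25 classes the 3 unlabelled medians lay below the 3 labelled ones.

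**Figure D3:**
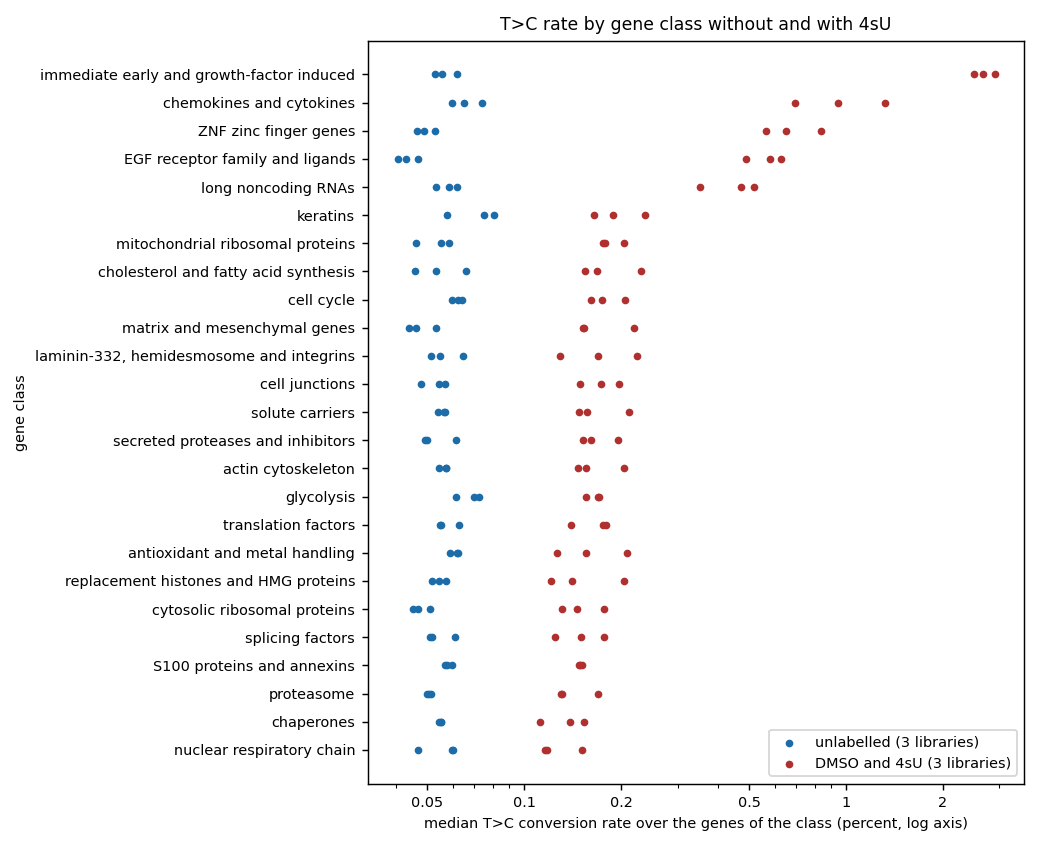
Median T>C conversion rate of each gene class (percent, log axis) in the 3 unlabelled libraries (blue) and the 3 libraries with DMSO and 4sU (red), with 1 point per library. Unlabelled means lie between 0.0433% and 0.0710%, whereas labelled means reach 2.69% in immediate early genes.

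The error of a gene's background rate fell with its reads. The median SD over the 3 libraries was 0.0489 percentage points for 2062 genes with fewer than 200 reads and 0.00778 for 250 genes with 5000 reads or more. The median rate hardly changed, 0.0620% and 0.0579%. Spearman correlations of the rate between pairs of libraries, across genes, were 0.110 to 0.161 in the first group and 0.470 to 0.733 in the last. The pairs share the reference sequence and the depth of each gene, and the values are a description. The coverage of T positions was not used here, so no interval is given for a single rate.

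The rate of 4838 of the 8803 genes (55%) was higher with DMSO and 4sU than without label, and of 4 genes (0.0454%) lower (limma, fitted to log2(rate + 0.0005), with p-values adjusted by Benjamini-Hochberg and a limit of 0.05). The lower genes were DFFB, TANGO2, EXOSC7 and MED19. EXOSC7 and MED19 also have an interval chosen for a high unlabelled rate, so for these the fit is no independent test. The rate of a gene is the mean over its intervals, not weighted by reads. In EXOSC7 the interval with most reads (518 on average) was higher with label. It had 0.0647%, 0.0541% and 0.0699% without label and 0.153%, 0.116% and 0.140% with DMSO and 4sU. The lower mean came from an interval with 61.7 reads on average. All 18 long noncoding RNAs, 28 of 29 immediate early genes and 119 of 143 ZNF genes rose, against 28 of 79 respiratory chain genes. For DUSP1, a MAP kinase phosphatase, the rate was 0.0360%, 0.0368% and 0.0400% without label and 9.32%, 10.0% and 9.35% with it (log2 difference 6.78 ± 0.21, SE; limma adjusted p 0.000118). EGR1 (0.0752%, 0.0497% and 0.0515% without label), ZFP36, CXCL2, KLF6 and SPRY2 also rose, by 6.02 to 6.35. JUN rose by 4.78 ± 0.28 (SE; limma adjusted p 0.000209). With replicate 1, 2 or 3 left out of both groups, 2412, 3044 and 2908 genes passed.

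In total mRNA 140 of the 8803 genes were lower with DMSO and 4sU than in unlabelled cells and none was higher (limma on log2(CPM + 1), adjusted p of 0.05). Among all 11140 genes tested 177 were lower (1.59%) and 0 higher. At an adjusted p of 0.05 edgeR called 0 higher and 165 lower, and DESeq2 5 higher and 379 lower. At an unadjusted p of 0.05 limma gave 312 higher and 819 lower, edgeR 325 and 827, and DESeq2 316 and 873. Immediate early genes fell in 14 of 29, chemokines and cytokines in 4 of 11, long noncoding RNAs in 4 of 18 and ZNF genes in 15 of 143 cases. Values in CPM for this comparison are sums over distinct intervals, as tested. DUSP1 was at 231, 149 and 156 CPM without label and at 23.8, 16.3 and 24.4 CPM with it (log2 difference -3.02 ± 0.21, SE; limma adjusted p 0.000264), and the groups did not overlap. CXCL2 (63.6, 81.9 and 61.6 CPM without label), MYC (101, 206 and 230 CPM) and DUSP6 (102, 148 and 123 CPM) fell as well, by 2.98, 2.93 and 2.25. None of the 69 ribosomal protein, 79 respiratory chain or 10 keratin genes passed, with median log2 differences of 0.27, 0.19 and 0.27, against 0.05 for all 8803 genes. JUN fell by 1.00 ± 0.19 (SE; limma adjusted p 0.0310), and the limma adjusted p was 0.0543 with the replicate number as a block. Its 3 values with DMSO and 4sU were 30.2, 20.3 and 25.6 CPM, all below the unlabelled ones, while the IAA and 4sU library had 62.9 CPM. Without replicate 1, 2 or 3 of both groups 453, 25 and 28 genes passed, and without unlabelled replicate 1 alone 305. The groups differ in 4sU, and the solvent of the unlabelled group is not named, so effects of label and solvent cannot be told apart. Whether the lower read counts reflect less mRNA in the cells was not tested.

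The 45 intervals with a high background are defined by their unlabelled rates, which are therefore a description. Their median was 0.987% and that of other intervals 0.0588%. They fell on 17 chromosomes, and 4 of the 35 genes (EIF3G, FOSL2, UQCR11 and SLC66A3) were in a class list, as were 951 of all 8803. In 29 genes such an interval had at least 100 reads in each unlabelled library.

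The highest rate belonged to SLC66A3, a PQ-loop membrane protein, with 7.81%, 8.33% and 10.0%, but from 8.33 reads a library on average, too few for a firm rate. PPP1R7, a regulatory subunit of protein phosphatase 1, had 3.12%, 4.79% and 4.08% in an interval of 830 bases on chromosome 2. EIF3G, an initiation factor subunit on chromosome 19, had 2.39%, 4.82% and 4.56%. These rates lie far above the median gene in each library. OS9, a lectin of endoplasmic reticulum quality control, had 1.60%, 3.35% and 2.94%. FSCN1, which bundles actin, had 2.26%, 1.74% and 1.72% at 297 CPM, and CAPN15, a calpain, 1.77%, 1.76% and 2.11%. SFN, the epithelial 14-3-3 sigma protein, is both a basal marker and the high interval with most reads (384, 446 and 322 CPM). Its rate was 1.00%, 2.17% and 2.08%, and replicate 1 was below the others.

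Next in rate were BORCS8 (a lysosome positioning subunit, 1.61% on average), NOL8 (nucleolar, 1.38%), RPL13AP20 (a pseudogene, 1.31%) and MED19 (Mediator subunit, 1.30%). Next in reads were C1QBP (mitochondrial matrix protein, 218 CPM), UQCR11 (complex III, 112 CPM), COMMD6 (COMMD family, 106 CPM), TMX1 (a thioredoxin-related membrane protein, 76.1 CPM), NOP10 (snoRNP and telomerase component, 60.4 CPM), TRIM25 (ubiquitin ligase, 50.4 CPM) and EXOC8 (exocyst, 42.0 CPM). C1QBP had 1.01%, 1.27% and 1.33%, TMX1 1.05%, 1.02% and 0.990%, and UQCR11 0.542%, 0.542% and 0.629%. In TMX1 the 3 libraries differed by an SD of only 0.0280 points.

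The labelled libraries, which the rule did not use, had high rates in the same intervals. Of the 37 with 100 reads or more in each unlabelled library, 33 (89.2%) were at 0.5% or more in all 3 libraries with DMSO and 4sU, against 7.53% of 9653 other intervals of that depth, and all 37 were so in the IAA and 4sU library. SFN had 2.53%, 2.55% and 2.65% with DMSO and 4sU, and EIF3G 5.012%, 5.30% and 4.66%. The median ratio of labelled to unlabelled rate was 1.199 for the 45 intervals and 3.70 for other intervals, and the median added rate was 0.177 and 0.151 points. Unlabelled and labelled ranges overlapped in 25 of 45 (55.6%) and in 38.1% of other intervals. The ratio, the added rate and the overlap use the unlabelled rates by which the 45 were chosen. They are therefore a description and no test.

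Some went down in value with label. MED19 had 0.970%, 2.12% and 0.799% without and 0.658%, 0.375% and 0.313% with DMSO and 4sU. ACADSB, an acyl-CoA dehydrogenase, had 0.715%, 0.666% and 0.824% without and 0.422%, 0.501% and 0.510% with it, and in both genes the groups did not overlap. As these intervals were chosen for high unlabelled values, a lower value in other libraries is no test of a difference.

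**Figure D4:**
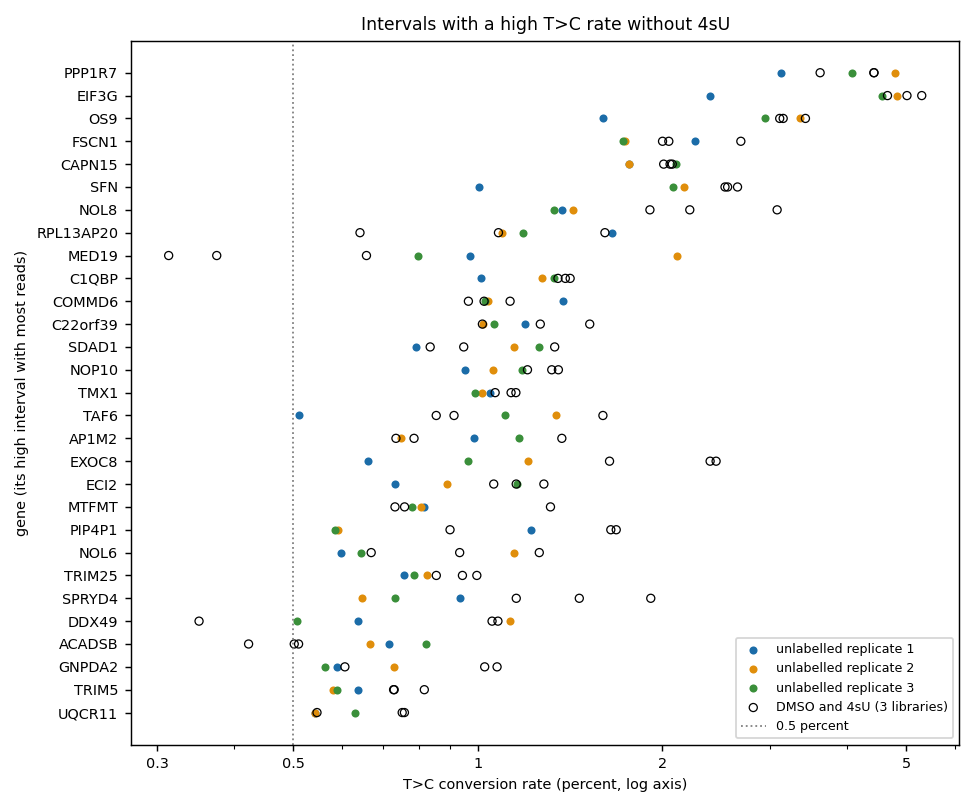
T>C conversion rate (percent, log axis) of the high-background interval of 29 genes with at least 100 reads in each unlabelled library, with filled points for unlabelled replicates and open circles for the 3 libraries with DMSO and 4sU. PPP1R7 and EIF3G have the highest rates, SFN, OS9, EIF3G and TAF6 have a low replicate 1, and MED19 and ACADSB have lower rates with label.

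Among the 29 genes, replicate 1 was below 2/3 of the mean of the others in 7, replicate 2 in 1 and replicate 3 in 3. TAF6, a TFIID subunit, had 0.511%, 1.34% and 1.11%, and the low value of replicate 1 put it near the limit. The lowest inside the limit were DDX49, an RNA helicase (0.638%, 1.13% and 0.506%), in intervals of 320 and 506 bases, and TAF6. Just outside were MAGOHB, of the exon junction complex (0.490%, 0.756% and 0.498%), and VCPKMT, a methyltransferase (0.476%, 0.532% and 0.654%). For the level of 5 CPM, ZNF337, TSEN54 and NSUN6 were just inside (5.000, 5.001 and 5.001 CPM) and FAM234B, TIGD5 and REV1 just outside (4.998, 4.996 and 4.996 CPM).

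RPL13AP20, a processed pseudogene on chromosome 12 (13028433 to 13029041 in the GENCODE annotation of GRCh37), had 21.9, 8.94 and 7.21 CPM in an interval of 660 bases and rates of 1.65%, 1.10% and 1.18%. Its parent RPL13A, a ribosomal protein, was at 665, 808 and 704 CPM. The GENCODE transcript of RPL13AP20 has 609 bases and that used for RPL13A has 660. They aligned over 605 bases with 96.7% identity, and at 6 of 108 aligned T positions of RPL13AP20 (5.56%) RPL13A has C. Counted from 1 at the 5′ end of the RPL13AP20 transcript these are T105C, T109C, T301C, T378C, T520C and T532C, with the base of the pseudogene first. The stretch with positions 105 and 109 is shown, with both in capitals.
RPL13AP20: tactgctgggccggaaggtggtggtTgtaT
RPL13A: tactgctgggccggaaggtggtggtCgtaC
Whether reads of RPL13A were counted there was not tested.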

How the data were processed

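The authors ran the nf-core SLAM-Seq pipeline on 3′ end reads (hg19 in the submitters' processing notes, versions not given in the sources used here) and deposited 1 table of 56868 rows. One deposited value per interval and sample is the conversion rate, on a fraction scale from sequenced T positions. The other, named CPM, is a signal that the authors scaled to 1000000 reads of the library. Deposited values were whole multiples of 1 read in 100% of cases (tolerance 1e-06 reads), so reads and library totals could be recovered. No per-sample column was left unused (0).

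RefSeq identifiers were matched to symbols through RefSeq GRCh38.p14 (97.7% of rows). Rows of a gene with equal length and values counted once. CPM of distinct intervals were summed for membership and tests, and rates averaged. Of the 8803 genes 137 shared all reads of their top interval with another gene. Genes whose levels reveal donor sex were left out.

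Members and lists were chosen with earlier results of these data known. Named genes were JUN, the 10 with most reads and with most reads per kb, the 3 highest and the lowest of each class, all markers, the 10 high-background intervals with highest rate and with most reads, those next to each limit, the ends of the CV order, and called class members. Others were named after their values were seen. A few genes that the rule names are not reported here.

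Tests used limma 3.58.1 (R 4.3.3, trended and robust), on log2(CPM + 1) with TMM library sizes for genes at 1 CPM or more and on log2(rate + 0.0005), with 3 libraries a group. edgeR 4.0.16 (quasi-likelihood) and DESeq2 1.42.0 on recovered reads were alternatives, and fits were tested on simulated data. Deviations of same-numbered libraries with and without label correlated at 0.40, 0.34 and 0.44 in total mRNA, so same-numbered libraries varied together there. The main fits did not use the replicate number, and fits with it as a block are given below. Sequences were read from RefSeq tables and GENCODE transcripts (first entry of a gene) and aligned with Biopython. Other software was Python 3.11.15, pandas 2.3.3, numpy 2.4.6 and matplotlib 3.10.9.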

Additional observations from a re-analysis of the deposited data

How the results depend on the processing

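When an unlabelled replicate was left out, the count of genes at 5 CPM (8803) stayed within 1.5 times, at 8626 to 8833 genes. The median background rate stayed within the replicate SD, at 0.0549% to 0.0560%. The 45 high-background intervals became 53 to 62. That count can only stay or rise when a column is dropped, so it is no check of the set. The class share was 17.7% to 19.0%. With only the interval with most reads the class share was 15.6%, since overlapping intervals no longer add up, and per kb, of all genes at 5 CPM, 57.8%. The mean over genes gave a background of 0.0759% and weighting intervals by reads 0.0576%. A limit of 0.01 left 15 intervals, a mean rate of 0.005 gave 111, of which 57 had under 100 reads in some library, and all intervals, at any level, 84. For total mRNA, leaving out a replicate number from both groups gave 25 to 453 genes (177 with all), and DESeq2 384. For rates it gave 2412 to 3044 (4842 with all), with 4 libraries in place of 6. Leaving out only unlabelled replicate 1, chosen after seeing the data, gave 305 and 3495. The cause of these shifts was not tested.

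With the replicate number as a block, 183 genes passed in total mRNA and 4175 in rates. In total mRNA the block ended the call for JUN (adjusted p 0.0543 in limma) and for no other named call. In rates the deviations of same-numbered libraries did not correlate (0.0066, -0.013 and -0.012). Rates of genes with few reads vary much between libraries, so these values cannot decide whether the libraries are paired. Of 204 repeats of single named calls under another setting 192 stayed on their side of the threshold and 12 lost the call, all in total mRNA (SNAI2, ZNF92, ZNF551, LIF and JUN), and none changed direction. Depth limits single rates: genes with under 200 reads had a median SD close to their median rate.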

Other observations

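Of the 35 genes, 5 had a high-background interval beside another interval, with at least 20 reads in each unlabelled library, that was not high in all 3. In SLC66A3 the interval of 1047 bases had 0.0189%, 0.0393% and 0.0471% from 197 reads on average, and that of 1136 bases had nearly the same values, against 7.81%, 8.33% and 10.0% from 8.33 reads in the interval of 44 bases. In PPP1R7 the interval of 112 bases had 0%, 0.147% and 0%, against 3.12%, 4.79% and 4.08% in that of 830 bases. In UQCR11 the interval of 31 bases had 0.0354%, 0.0823% and 0%, against 0.542%, 0.542% and 0.629% in that of 1061 bases. In EXOSC7, a subunit of the RNA exosome, the interval of 134 bases had 0.0647%, 0.0541% and 0.0699% from 518 reads on average, against 0.601%, 0.726% and 0.841% from 61.7 reads in the interval of 484 bases. In C22orf39 the interval of 1118 bases had 0.772%, 0.536% and 0%, with 42.3 reads on average, so that replicates 1 and 2 were above 0.5% there too, against 1.19%, 1.02% and 1.06% in that of 760 bases. The sequences of these intervals were not analysed here.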
